A study of Mus musculus with 45 samples.

Results

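The 9 genes described here code for secreted lectins and other proteins that guard the mucosal surface, namely Mbl2, Reg1, Reg3a, Reg3b, Reg3g, Reg4, Lypd8, Pigr and Dmbt1. They were chosen by name with results of the comparison of the diets in these same libraries known, so their differences between the diets are a description. Whether a gene passed the threshold of the fit over all genes is stated for these differences, but it is no independent evidence, since the same contrast chose the genes. All 9 were found among the 47729 genes of the tables, and all 9 were among the 14020 genes that passed a filter on low counts, which asked for over 5 reads in 6 or more of 45 libraries. Mbl2 passed that filter through the RFD libraries alone, so its passing says nothing about a difference.

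The study fed male C57BL/6J mice at thermoneutrality a reference diet (RFD) with 10% fat or a high fat diet (HFD) with 60% fat, and sorted tuft cells by flow cytometry from the upper small intestine of each mouse. The labels give the sorted cells as EpCAM+CD45+ Siglec-F+. The study's methods give the same gate but also say that cells with CD45 were left out, so the CD45 state is unclear. RNA was amplified by the Smart-seq2 protocol, which keeps no strand. The first set, titled STF, held 11 mice on RFD and 11 on HFD for 9 weeks. The second set, titled LTF, held 11 mice on RFD and 12 on HFD and stands here for 22 weeks of feeding. The labels give 9 weeks for both sets, and the second set also consists of older mice, so feeding time, age and set cannot be told apart. No transgene or deletion was carried by any group. Mice are named below by the number in their label.

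Library totals on genes lay between 189308 and 4690210 reads, with group medians from 1348640 to 1813372. All 18 tuft cell markers searched, such as Dclk1, Trpm5 and Pou2f3, had reads in every group, and their summed level was between 380 and 28070 CPM (counts scaled to the normalized library total) over the libraries. Markers of other epithelial cells were present as well. The 20 enterocyte markers summed to between 6628 and 42580 CPM, and the 12 Paneth cell markers to between 32.9 and 724600 CPM. In 6 libraries the Paneth markers held over 100000 CPM: mice 10 and 20 on RFD and mice 8, 70 and 80 on HFD at 9 weeks, and mouse 7 on HFD at 22 weeks. In mouse 80 they held 72.5% of the normalized reads, beside 380 CPM of tuft markers. The 14 enteroendocrine markers summed to between 63.8 and 6581 CPM. At 22 weeks 5 of the 12 tested were lower on HFD, among them Nts (mean 77.3 CPM on RFD and 0.12 on HFD) and Cck (86.0 and 0.46), with a median log2 fold change of -3.72, while none was called at 9 weeks (median 0.41). The 12 T cell markers summed to at most 117.4 CPM in any library, the 7 B and plasma cell markers to at most 4900 and the 9 myeloid markers to at most 2427. At 22 weeks 9 of 9 myeloid markers had positive fitted values on HFD, none called (median log2 fold change 2.71). The fit compares means, while the median library held 10.45 CPM of these markers on HFD and 10.82 CPM on RFD. The highest level on HFD, 2427 CPM, was that of mouse 31. In bulk samples, fewer cells of a type and less RNA per cell cannot be told apart.

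Mucosal lectins act outside the cell. Proteins of the Reg3 family are small C-type lectins that bind bacterial surfaces, and Reg3b and Reg3g are induced in intestinal epithelium by microbes and by IL-22, which signals through STAT3. Mannose-binding lectin, the product of Mbl2, is a collectin that recognizes microbial sugars and starts the lectin pathway of complement. Its main known source is the liver. Pigr carries dimeric IgA across the epithelium, Lypd8 is a GPI-anchored protein that keeps flagellated bacteria from the mucosa, and Dmbt1 is a scavenger receptor protein of mucosal secretions.

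In GRCm38 (GENCODE M21), 4 of the genes lie together on chromosome 6, with Reg3b at 78370657 to 78373466, Reg3a at 78380709 to 78383827, Reg1 at 78422711 to 78428667 and Reg3g at 78466269 to 78468872. Reg3g is on the minus strand and the other 3 are on the plus strand. Reg3d and Reg2 lie between them. Reg4 is on chromosome 3 (98222156 to 98236748, plus strand), Mbl2 on chromosome 19 (30232942 to 30239687, plus strand), Pigr on chromosome 1 (130826684 to 130852249, plus strand), Lypd8 on chromosome 11 (58379043 to 58390728, plus strand) and Dmbt1 on chromosome 7 (131032053 to 131121630, plus strand). The coding sequences of Reg3b and Reg3g were 76.0% identical (525 and 522 bases), and no run of 50 bases was shared between the transcripts of any pair of the 5 Reg genes compared. Reads that fit more than 1 gene were shared out by RSEM, so the division between such close relatives is uncertain. Of all counts above 0, 8.79% were not whole (beyond 0.001 of a whole number).

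The 200 bases before the RefSeq start of Reg3b and Reg3g (GRCm38.p6) are shown because these genes of 1 cluster varied together between mice while Reg3b stood lower against Reg3g on HFD at 9 weeks. Those before Mbl2 are shown because it was without a read on HFD. Capitals mark matches to the STAT motif TTCNNNGAA or to TATAAA on either strand, and the searched motifs did not overlap in these windows. The windows are chr6:78370685-78370884 (plus strand) for Reg3b, chr6:78468875-78469074 (minus strand) for Reg3g and chr19:30232728-30232927 (plus strand) for Mbl2.
Reg3b: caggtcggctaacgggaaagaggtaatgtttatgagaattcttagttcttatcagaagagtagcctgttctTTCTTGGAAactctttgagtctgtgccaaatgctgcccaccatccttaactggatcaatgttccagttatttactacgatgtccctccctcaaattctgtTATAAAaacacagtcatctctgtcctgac
Reg3g: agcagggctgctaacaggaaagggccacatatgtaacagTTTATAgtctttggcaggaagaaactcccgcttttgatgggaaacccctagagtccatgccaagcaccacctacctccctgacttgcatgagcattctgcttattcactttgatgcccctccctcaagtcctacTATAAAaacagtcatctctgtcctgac
Mbl2: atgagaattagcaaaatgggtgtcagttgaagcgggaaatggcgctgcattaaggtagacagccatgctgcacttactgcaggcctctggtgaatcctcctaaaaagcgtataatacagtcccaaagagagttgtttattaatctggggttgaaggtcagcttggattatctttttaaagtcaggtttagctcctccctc
The windows of Reg3b and Reg3g were 68.5% identical in a global alignment, whereas Mbl2 was 53.0% and 50.5% identical to them. The match to TTCNNNGAA stood 129 to 121 bases before the Reg3b start, and the RefSeq window of Reg3g held none. TATAAA stood 29 to 24 bases before the start of Reg3b and 27 to 22 bases before that of Reg3g. In 250 bases before the start, 7.02% of 32851 promoters held TTCNNNGAA and 12.4% held TATAAA on either strand. No match to TTCNNNGAA, TATAAA or the HNF4 motif CAAAGTCCA, nor to the longer HNF1 and DR1 motifs of liver gene control, was found in the 250 bases before Mbl2. The HNF4 letters were in 0.384% of all promoters, the HNF1 motif in 0.00913% and the DR1 motif in 0.0335%. A match is only a match of letters, and Reg3b begins earlier in GENCODE than in RefSeq, so its window overlaps a GENCODE exon or intron. RefSeq promoters were matched for 8 of the 9 genes.

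Compared per length within a library, as TPM (transcript abundance scaled to gene length and library), the antibacterial lectins stood at the top and Mbl2 at the bottom. On RFD at 9 weeks the median TPM was 3700 for Reg3b, 3100 for Reg3g, 919 for Lypd8, 255 for Reg1, 220 for Pigr, 192 for Dmbt1, 58.9 for Reg4, 49.3 for Reg3a and 1.24 for Mbl2. The quartiles of Reg3b (2360 to 4620) and Reg3g (2440 to 5660) overlapped, as did those of Reg1, Pigr and Dmbt1 and those of Reg4 and Reg3a, so neighbours within these sets did not stand apart beyond their spread. The order on RFD at 22 weeks began with the same genes, Reg3b at 4070, Reg3g at 3210 and Lypd8 at 933 TPM. On HFD the order of the first places differed. Reg3g led at 9 weeks with 1650 TPM, above Reg3b at 845, and Lypd8 led at 22 weeks with 1480 TPM, above Reg3g at 576 and Reg3b at 540. At 22 weeks on HFD the quartiles of Reg3b (359 to 2970) and Reg3g (279 to 3110) spanned that of Lypd8 (992 to 1720).

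Mbl2, the initiator of the lectin pathway of complement, was detected on RFD and had no read in any HFD library. On RFD at 9 weeks it had 0 to 33 reads per library, 7 of 11 libraries had at least 1 read, and the level was between 0 and 21.4 CPM with a median of 1.20 (3.63 ± 6.27, SD, n = 11). On RFD at 22 weeks 11 of 11 libraries had reads, from 1 to 108, and the level was between 0.733 and 50.5 CPM with a median of 10.0 (15.2 ± 15.4, SD, n = 11). On HFD it had 0 reads in 11 of 11 libraries at 9 weeks, of 20462234 reads on genes, and in 12 of 12 at 22 weeks, of 22925723 reads. The diets therefore overlapped at 9 weeks, where 4 RFD libraries were also at 0, and did not overlap at 22 weeks. Set against a floor of 3 reads in each HFD library, which came to a mean of 2.40 CPM at 9 weeks and 1.87 CPM at 22 weeks, the RFD mean was at least 1.51-fold higher at 9 weeks and at least 8.12-fold higher at 22 weeks. At 9 weeks 1 RFD library, mouse 84, was above the highest floor of any HFD library (8.70 CPM) at 33 reads, and the bound rests on it. Without it the mean of the others was 1.86 CPM, below the mean floor, so this floor gives no bound at 9 weeks. The floor is set per library and is wide, since the 11 HFD libraries together had 0 of 20462234 reads. The bounds are therefore cautious, and a bound on the pooled reads was not computed. At 22 weeks 9 of 11 RFD libraries were above the highest floor (4.0 CPM), and without mouse 30, the highest, the bound was 6.24-fold.

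Among the 14020 genes tested, Mbl2 was the 1 gene (0.00713%) without a read in any of the 23 HFD libraries, and no gene was without a read in all 22 RFD libraries. It was also the 1 gene (0.00713%) that was lower on HFD at 22 weeks without overlap of the diets. These shares describe the comparison that chose the gene. Reads of Mbl2 on RFD were found in all 3 series of mouse numbers (1 to 8, multiples of 10, and the numbers from 21 to 64) at both times, but unevenly at 9 weeks. At 9 weeks the mean of log2(CPM + 0.5) differed by -3.41, -0.86 and -0.60 in the 3 series, HFD minus RFD. At 22 weeks these differences came to -3.49, -4.34 and -4.87. With every HFD library at 0 reads, their sizes depend on the added 0.5 and are not measured fold differences. At 9 weeks mice 1, 3, 4 and 84 had 6, 7, 13 and 33 of the 69 reads. At 22 weeks, where the diets did not overlap for Mbl2, 5 of 12 enteroendocrine markers were also lower on HFD, and their part in the result was not tested.

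**Figure D1:**
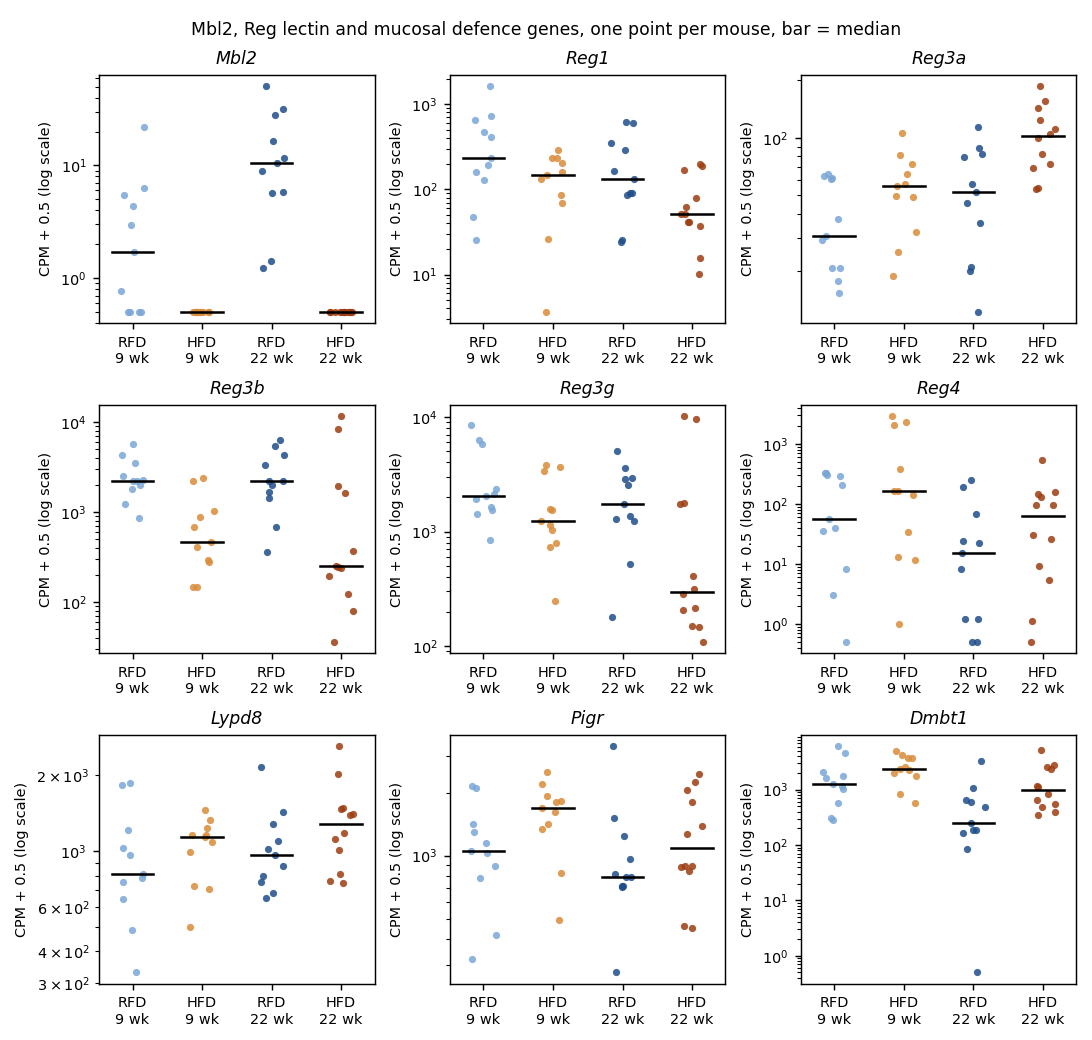
Normalized level of each gene as CPM + 0.5 on a log scale (y axis) in the 4 groups (x axis), with 1 point per mouse and a bar at the median. Every HFD point of Mbl2 lies at 0 reads, and Reg3b and Reg3g on HFD at 22 weeks fall into a low cloud and 4 mice above it.

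In the fit of the diets across all genes (edgeR's quasi-likelihood test, Benjamini-Hochberg adjusted p under 0.1), 2 of the 9 genes were called at 9 weeks, Mbl2 and Reg3b, both lower on HFD. Over all genes tested 3.32% were called, and 1.33% were called lower. At 22 weeks 1 of the 9 was called, Mbl2, again lower, where 0.792% of all genes were called and 0.357% were called lower. Nothing is read from these counts, since the genes were picked with this contrast known. The call of Reg3b was lost in several other settings. Without the 5 Paneth-rich libraries at 9 weeks its log2 fold change moved from -1.66 to -1.01 and it was no longer called. With the summed Paneth or tuft markers as a covariate neither gene was called at 9 weeks. Between the diets at that time the 18 tuft markers had a median log2 fold change of -0.95 and the 12 Paneth markers of 2.48, none of them called. Their part in the results was not tested further. All 10 stem and cycling markers were positive (median 1.22), with 2 called higher on HFD. All 9 goblet markers were positive as well (median 0.81), with none called. The part of the stem, cycling and goblet markers was not tested.

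Reg3b and Reg3g, the bactericidal lectins, were the most abundant of the genes on RFD. Reg3b on RFD at 9 weeks was between 849 and 5620 CPM with a median of 2190, and on HFD between 145 and 2400 with a median of 467. In 7 of 11 HFD libraries Reg3b was below every RFD library, and only mice 7 and 62 were above the RFD median. The log2 fold change was -1.66 (SE 0.44), and the differences of mean log2 CPM in the 3 number series were -2.08, -2.82 and -1.34. Reg3g at 9 weeks was between 851 and 8480 CPM on RFD (median 2060) and between 248 and 3780 on HFD (median 1250). Here 3 HFD libraries were below every RFD library, with a log2 fold change of -0.81 (SE 0.43).

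At 22 weeks the HFD libraries fell apart for both lectins. Reg3b on RFD was between 363 and 6240 CPM with a median of 2220. On HFD 8 libraries held 35.1 to 366.4 CPM, while mice 50, 8, 65 and 80 held 1604, 1924, 8467 and 11650 CPM. In 7 of 12 HFD libraries Reg3b was below every RFD library, and in 2 it was above every RFD library. Reg3g followed the same split. The same 4 mice held 1762, 1742, 9572 and 10170 CPM, and the median on HFD was 299 against 1740 on RFD. The fitted log2 fold change, which compares mean levels, was -0.41 (SE 0.84) for Reg3b and -0.07 (SE 0.80) for Reg3g. On mean log2 CPM, which the 2 highest mice move less, the differences were -2.13 and -1.45. Without mouse 80 the fitted value for Reg3b was -1.21.

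Of the 4 mice with high Reg3b on HFD at 22 weeks, mice 50 and 80 belong to the multiples of 10, mouse 8 to the series 1 to 8 and mouse 65 to none, a count made after the values were seen. The difference of mean log2 CPM of Reg3b was -3.65 in the series 1 to 8, -0.60 in the multiples of 10 and -2.82 in the numbers from 21 to 34. For Reg3g the same values were -2.59, -0.24 and -2.25. The study's methods say that a cage of each group was taken on each of 3 days, but neither they nor the labels say which numbers shared a day or cage. The part of the number series in the split was not tested. The summed Paneth markers in mice 8, 50, 65 and 80 were 28940, 21280, 1277 and 32.9 CPM, against 225 to 158700 in the other 8.

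**Figure D2:**
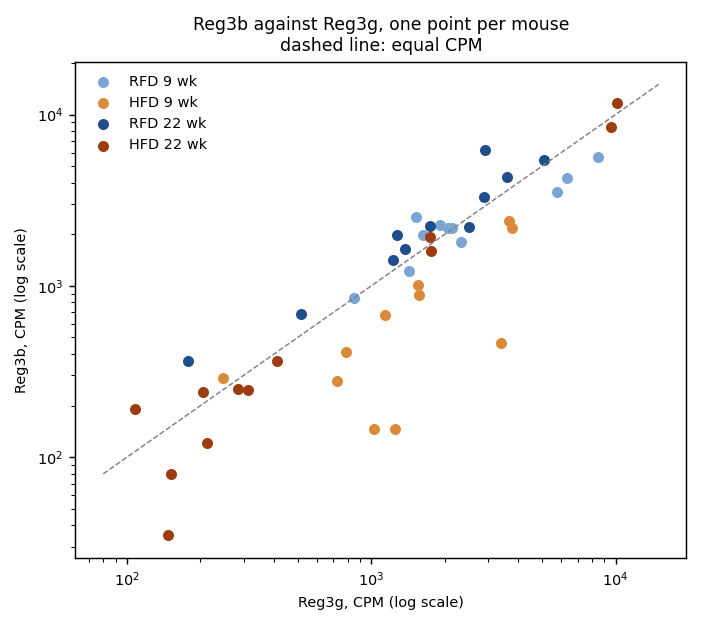
Reg3b (y axis) against Reg3g (x axis) as CPM on log scales, 1 point per mouse, with the dashed line at equal CPM. Libraries on HFD at 9 weeks lie below the line with 1 exception, and mice 8, 70 and 80 lie farthest from it.

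The ratio of Reg3b to Reg3g reads within a library does not depend on how many reads the library holds. On RFD at 9 weeks it was between 0.616 and 1.65 with a median of 0.998, and 5 of 11 libraries were above 1. On HFD it was between 0.117 and 1.17 with a median of 0.562, and 1 of 11 was above 1. The 3 lowest ratios were those of mice 8 (0.117), 80 (0.138) and 70 (0.142), which are the 3 Paneth-rich HFD libraries at this time. At 22 weeks it was above 1 in 10 of 11 RFD libraries (median 1.20) and in 4 of 12 HFD libraries (median 0.889). On HFD at 22 weeks mice 8 and 80 were above 1 and mice 50 and 65 below it, while mouse 5 had the lowest ratio, 0.240.

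Reg1, a lectin of pancreas and gut known for its link to tissue regeneration, had lower values on HFD at both times without being called. At 9 weeks it was between 25.2 and 1640 CPM on RFD (median 233) and between 3.14 and 291 on HFD (median 145). At 22 weeks it was between 23.5 and 614 CPM on RFD (median 132) and between 9.76 and 198 on HFD (median 51.0). The diets overlapped at both times, with 9 of 11 and 9 of 12 HFD libraries below the RFD median. The log2 fold changes were -1.54 (SE 0.64) and -1.49 (SE 0.56), and the difference was negative in each number series of both sets, from -2.24 to -0.50.

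Reg3a, a neighbour of Reg3b on chromosome 6, had values in the other direction. It was between 14.9 and 64.4 CPM on RFD at 9 weeks (median 30) and between 18.3 and 106 on HFD (median 55.2). At 22 weeks it was between 11.7 and 114 CPM on RFD (median 51.4) and between 53.1 and 187 on HFD (median 102), with 12 of 12 HFD libraries above the RFD median. The log2 fold changes were 0.61 (SE 0.31) and 0.94 (SE 0.29), neither of them called. In the number series the differences of mean log2 CPM were 1.19, 0.25 and -0.03 at 9 weeks. They were 0.79, 1.94 and 0.65 at 22 weeks.

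Reg4, known from enteroendocrine and deep crypt secretory cells, spanned a wide range in every group. On RFD it was between 0 and 334 CPM at 9 weeks and between 0 and 255 at 22 weeks. On HFD it was between 0.523 and 2930 CPM at 9 weeks and between 0 and 542 at 22 weeks. The diets overlapped widely. The highest values, 2934, 2314 and 2053 CPM, were those of mice 8, 80 and 70, the Paneth-rich HFD libraries. The log2 fold change at 9 weeks was 2.40 (SE 1.16), and it was 0.06 without the Paneth-rich libraries and 0.03 with the Paneth markers as a covariate. At 22 weeks it was 0.98 (SE 1.02). In the number series the differences of mean log2 CPM were -0.64, 2.25 and 0.86 at 9 weeks. They were 3.01, 2.95 and 0.49 at 22 weeks.

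Lypd8, Pigr and Dmbt1 were expressed in nearly every library and none was called between the diets. Median Lypd8 was 809 CPM on RFD and 1140 on HFD at 9 weeks, and 963 and 1290 at 22 weeks. Median Pigr was 1060 and 1680 CPM at 9 weeks, and 791 and 1080 at 22 weeks. The log2 fold changes were 0.14 (SE 0.26) and 0.32 (SE 0.22) for Lypd8, and 0.53 (SE 0.29) and 0.28 (SE 0.32) for Pigr. Dmbt1 was between 287 and 6070 CPM on RFD at 9 weeks and between 584 and 5060 on HFD. At 22 weeks it was between 0 and 3230 CPM on RFD, where mouse 23 had no read and mouse 1 had the most, and between 346 and 5280 on HFD, with 12 of 12 HFD libraries above the RFD median of 253. Its log2 fold changes were 0.53 (SE 0.45) and 1.32 (SE 0.75). The differences of mean log2 CPM of Dmbt1 in the number series were 1.06, -0.56 and 1.28 at 9 weeks. They were 0.59, 1.87 and 4.4 at 22 weeks. With the tuft markers as a covariate the values at 9 weeks turned to -0.22, -0.026 and -0.0098 for Lypd8, Pigr and Dmbt1.

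**Figure D3:**
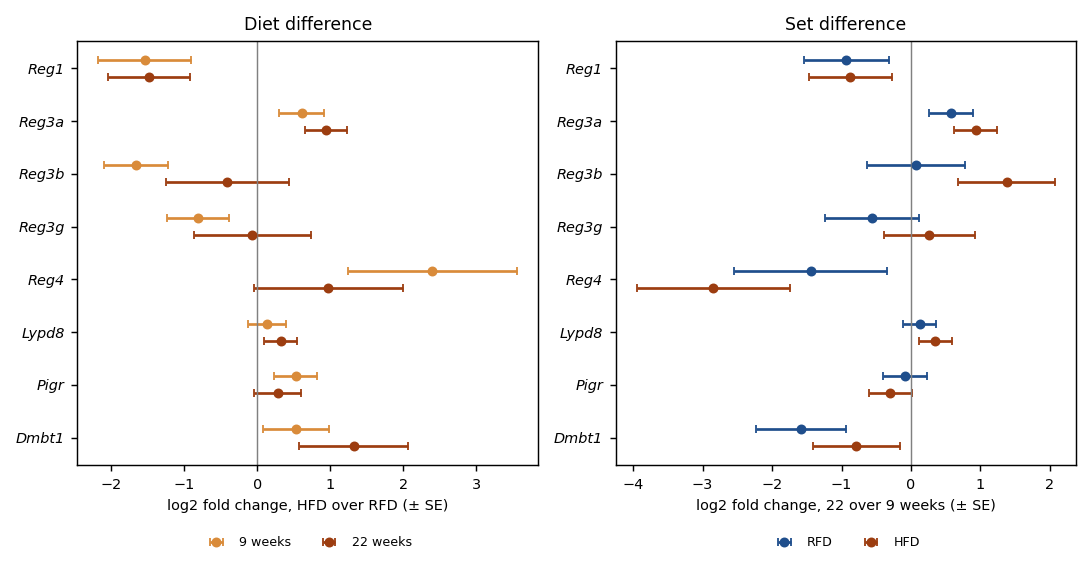
Fitted log2 fold changes with standard errors (x axis) for 8 genes (y axis), HFD over RFD in each set at the left and the second over the first set within each diet at the right. Mbl2 is left out because all its HFD libraries were at 0. Reg1 lies left of 0 and Reg3a right of 0 between the diets in both sets.

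No gene was called for a difference between the sets in its diet difference by the same edgeR test (0 of 14020 genes, 0%, with 451 at an unadjusted p under 0.05, 0 of them among the 9). DESeq2 called 1 gene, which was not among the 9. The interaction was 1.31 (SE 0.99) for Reg3b and between -1.40 and 0.83 for the other genes, and could not be estimated for Mbl2.

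The comparison of the sets within a diet is not the contrast by which the genes were chosen. It uses the same groups of libraries, however, so its results are not independent of that choice. On RFD 0 of the 9 genes was called between 9 and 22 weeks by edgeR's quasi-likelihood test (1.46% of all genes were, 0.977% higher and 0.478% lower). Mbl2 was 1.97 higher on the log2 scale at 22 weeks (SE 0.82, adjusted p = 0.360) and Dmbt1 was 1.58 lower (log2 difference -1.58, SE 0.65, adjusted p = 0.338), and both had an unadjusted p under 0.05. DESeq2 called Dmbt1 (adjusted p = 0.0787), and without the Paneth-rich libraries edgeR's value was -0.84 (adjusted p = 0.781). On HFD 1 of the 9 was called, where 3.47% of all genes were called higher, 2.31% lower and 5.78% in either direction. Mbl2, at 0 reads in all HFD libraries, could not be called there. Reg3a rose from 55.1 ± 25.5 CPM (SD, n = 11) at 9 weeks to 104 ± 41.9 CPM (SD, n = 12) at 22 weeks, a log2 difference of 0.93 (SE 0.31, adjusted p = 0.0807 by edgeR's quasi-likelihood test). The libraries overlapped, from 18.3 to 106 against 53.1 to 187 CPM. In the same comparison 13 of the 20 enterocyte markers were called higher, none lower, and their median log2 difference was 1.11 against 0.05 over all genes. With the enterocyte markers as a covariate the difference of Reg3a was 0.44 (SE 0.34, adjusted p = 0.733), and without the 6 Paneth-rich libraries it was 0.87 (adjusted p = 0.311). With the number series as a term it was 0.84 (adjusted p = 0.155) and with DESeq2's size factors 0.82 (adjusted p = 0.152, all by edgeR). The call was lost in each of these settings.

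The other genes on HFD were not called. Reg4 was lower at 22 weeks by edgeR's test (log2 difference -2.85, SE 1.10, adjusted p = 0.158), was called by DESeq2 (adjusted p = 0.0401), and stood at -0.84 without the Paneth-rich libraries. Reg3b was at 1.38 (SE 0.70, adjusted p = 0.315 by edgeR), with the 4 high mice of the second set in the mean. Lypd8 was called with the tuft markers as a covariate (0.69, adjusted p = 0.0231 by edgeR) and not otherwise (0.35, adjusted p = 0.475).

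Across mice within a group, the genes fell into sets that varied together. The relations of 128 pairs were tested within the 4 groups (two-sided permutation test with 100000 resamples, Benjamini-Hochberg adjusted), and 12 had an adjusted p under 0.1 for Spearman's rho. Reg3b and Reg3g gave r = 0.962 (p = 2e-05, adjusted p = 0.00128) and rho = 0.955 (p = 3e-05, adjusted p = 0.00384) on RFD at 22 weeks by this permutation test. Without the 2 libraries farthest from the median of Reg3b, r was 0.884. On HFD at 22 weeks the libraries fall into separate clouds for both lectins, so no correlation within that group is given. On HFD at 9 weeks r was 0.640 (permutation p = 0.0330, adjusted p = 0.147) and fell to 0.334 without 2 libraries, so there the relation was not shown. On RFD at 9 weeks r was 0.922 (permutation adjusted p = 0.00288) and rho 0.736 (permutation adjusted p = 0.113), with r at 0.840 without 2 libraries.

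Lypd8, Pigr and Dmbt1 formed the second set. Their 3 pairs had r between 0.498 and 0.913 in the 4 groups, and between 0.140 (Pigr and Dmbt1 on HFD at 9 weeks) and 0.926 without the 2 farthest libraries. By the permutation test rho passed the threshold for Lypd8 and Pigr in 3 groups, for Lypd8 and Dmbt1 in 3 and for Pigr and Dmbt1 in 2. Pairs across the sets passed as well, Reg3b and Lypd8 on RFD at 9 weeks (r = 0.753, rho = 0.818, permutation adjusted p = 0.0635 and 0.0514) and Reg1 and Pigr on HFD at 9 weeks (r = 0.965, rho = 0.855, permutation adjusted p = 0.00288 and 0.0347). Number series within a group hold 3 or 4 libraries at most, too few for values within a series. Levels of all genes, markers included, are shares of 1 total per library.

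**Figure D4:**
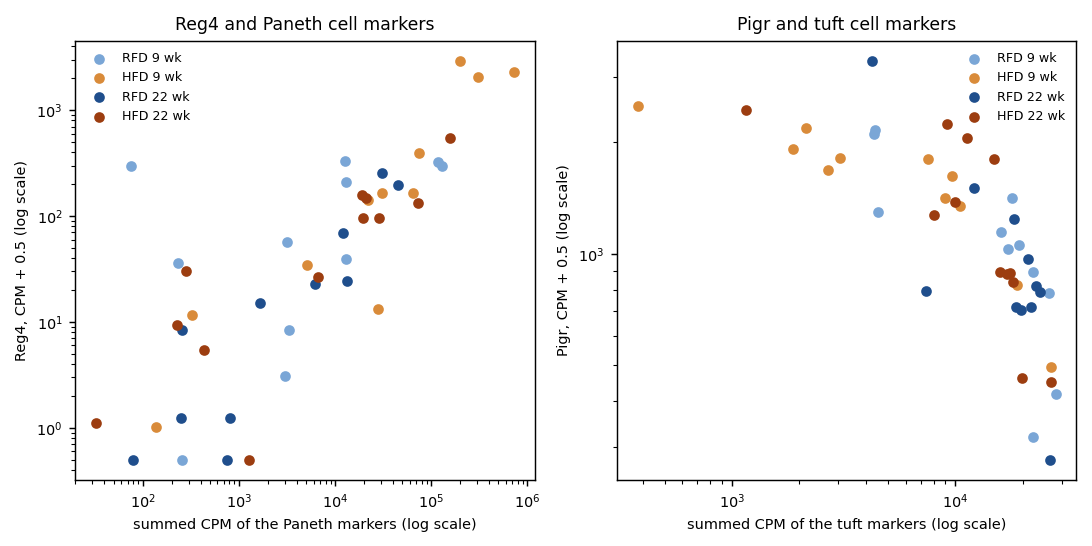
Reg4 against the summed Paneth markers (left) and Pigr against the summed tuft markers (right), as CPM on log scales, 1 point per mouse and colours for the 4 groups. Reg4 is higher where Paneth markers are, and Pigr is lower where tuft markers are higher.

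Levels of marker genes moved with several of the lectins. With the 20 enterocyte markers, 0 of 34 relations had an adjusted p under 0.1 for rho or r by the permutation test. With the tuft and Paneth markers, lists added after the data were seen, 14 of 68 did for rho. Reg4 followed the Paneth markers on HFD at 9 weeks (r = 0.917, rho = 0.945, permutation adjusted p = 0.00136 and 0.00238), on RFD at 22 weeks (r = 0.893, rho = 0.925, permutation adjusted p = 0.0163 and 0.00306) and on HFD at 22 weeks (r = 0.824, rho = 0.783, permutation adjusted p = 0.0197 and 0.0235). Without the 2 farthest libraries r was 0.864, 0.831 and 0.763. On RFD at 9 weeks the relation did not pass (r = 0.448, rho = 0.527, permutation adjusted p = 0.334 and 0.253). Pigr was lower where the tuft markers were higher, with rho of -0.864, -0.955, -0.618 and -0.902 in the 4 groups (permutation adjusted p = 0.0124, 0.00204, 0.147 and 0.00306, RFD and HFD at 9 weeks and then at 22 weeks). Without the 2 farthest libraries r was -0.525, -0.851, -0.753 and -0.886. The tuft markers also passed for rho with Lypd8 (-0.873) and Dmbt1 (-0.745) on RFD at 9 weeks. They passed with both on HFD at 22 weeks (-0.811 and -0.804), and permutation adjusted p was from 0.0117 to 0.0617. On RFD at 9 weeks r went from -0.722 to -0.385 for Lypd8 and from -0.772 to -0.494 for Dmbt1 without 2 libraries. On HFD at 22 weeks it went from -0.76 to -0.577 for Lypd8 and from -0.766 to -0.769 for Dmbt1. With Reg1 the tuft markers passed on HFD at 9 weeks (-0.836) and RFD at 22 weeks (-0.827, both with permutation adjusted p = 0.0180). Without 2 libraries r was -0.821 and -0.602 there. With Reg3g they passed on RFD at 9 weeks (-0.809, permutation adjusted p = 0.0235, where r fell from -0.699 to -0.292 without 2 libraries). Reg1 passed with the Paneth markers on HFD at 9 weeks (rho 0.718, permutation adjusted p = 0.0777), where r fell from 0.739 to 0.417 without 2 libraries. Reg3b passed for rho with neither list in any group, but for r with the Paneth markers on RFD at 9 weeks (0.664, permutation adjusted p = 0.0902, and 0.369 without 2 libraries). Reg3g passed there for r as well (0.722, permutation adjusted p = 0.0567) but not for rho (0.655, permutation adjusted p = 0.122). Without 2 libraries r of Reg3g was 0.513. Mbl2 on RFD had rho of 0.302 and 0.527 with the enterocyte markers, -0.121 and 0.200 with the tuft markers, and -0.470 and -0.273 with the Paneth markers at 9 and 22 weeks (permutation adjusted p from 0.322 to 0.861).

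The genes most like each of the 9 were taken by Spearman's rho over the 45 libraries, after the mean of each group was removed. For Reg4 they were Clps, Gm15292, AY761184, Defa26 and Ang4 (0.829 to 0.875). Defa26 and Ang4 code for antimicrobial proteins of Paneth cells. For Reg3b they were Reg3g (0.887), Cd74, H2-Eb1, H2-Aa and Cycs (0.497 to 0.612), of which Cd74 and the H2 genes code for parts of MHC class II antigen presentation. For Reg3g they were Reg3b, Cd74, Gpx2, Sun1 and Cycs. For Reg3a they were Slc6a20a, Sis, Cyp2j6, Arg2 and Ephx2 (0.645 to 0.721), with Sis a brush border enzyme of enterocytes, and for Reg1 Cyp2j6, Sptssa, Fam13a, Acaa2 and Galm (0.719 to 0.753). Lypd8 was most like Pycard, Txn1, Krt19, Uqcrfs1 and Ccl25 (0.847 to 0.872). Pigr was most like Golm1, Otc, Serinc3, Hspa9 and Lypd8, and Dmbt1 most like Eprs, Golm1, Kitl, Cdca3 and Pigr. Mbl2, which varies on RFD only, was most like Clec2h (0.590). It was at 0 in all HFD libraries, and such ties limit rho, so its value is not ranked against the others.

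Few other genes of the same pathways were called between the diets. Of the 15 genes of the lectin pathway and its complement partners, 7 passed the filter. Mbl2 was called at both times and none of the other 6, and the median log2 fold change of the 7 was -0.46 at 9 weeks and -0.60 at 22 weeks (also with Mbl2 at its bound) against -0.05 and -0.03 over all genes. C3, the central component of complement, was at -2.21 (SE 0.93, edgeR adjusted p = 0.202) and -1.99 (SE 0.72, edgeR adjusted p = 0.290). Masp1 and Masp2, the proteases that act with mannose-binding lectin, were among the 8 that did not pass the filter, as was Mbl1. Of the 7 Reg genes, Reg2 had no read in any library and Reg3d did not pass.

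Of the 25 receptors and signalling genes of IL-22, IL-17 and IL-6 and of microbial sensing, 23 were tested. At 9 weeks 2 were called lower on HFD, where 1.33% of all genes were, and none was called higher. Among them Il18, an epithelial cytokine of the IL-1 family, was at -1.09 (SE 0.33, edgeR adjusted p = 0.0962). At 22 weeks none was called. Stat3, named for its role, was at -0.19 and -0.02 and was not called. The median of the list was -0.26 and -0.10 at the 2 times. From 9 to 22 weeks on HFD, where 3.47% of all genes were called higher, Il18 and Il10rb, a shared chain of the IL-22 receptor, rose. They were at 1.20 (edgeR adjusted p = 0.0120) and 0.89 (edgeR adjusted p = 0.0190). On RFD they were at 0.69 and 0.52, neither of them called. In the comparison on HFD 13 of 20 enterocyte markers were also called higher, and their part was not tested. Of the 7 genes listed for IgA transport and supply, 6 were tested. Fcgrt, the neonatal Fc receptor, was called higher on HFD at 9 weeks (1.30, SE 0.35, edgeR adjusted p = 0.0662). This receptor binds IgG rather than IgA, and no other gene of the list was called there. Over all genes 2% were called higher there. None of the 6 was called at 22 weeks.

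Among 35 other genes of epithelial defence, 21 were tested. At 9 weeks Nos2, the inducible nitric oxide synthase (-3.96, SE 1.02, edgeR adjusted p = 0.0626), and Ltf, the gene of lactotransferrin (-1.80, SE 0.52, edgeR adjusted p = 0.0790), were lower on HFD, and none was called at 22 weeks. From 9 to 22 weeks on HFD, where 3.47% of all genes were called higher, 5 rose and none fell, namely Nos2, Muc13, Sprr2a3, Sprr2a2 and Ceacam20, by 0.73 to 5.09 on the log2 scale (edgeR adjusted p from 0.00583 to 0.0738). In that comparison 13 of 20 enterocyte markers were called higher and the 12 Paneth markers had a median log2 difference of -2.23, none called, and their part in these changes was not tested. On RFD none of the 21 was called between the sets. Nos2 was at a low level, with means of 2.015 CPM (RFD) and 0.0458 CPM (HFD) in the first set. In the second set its means were 3.638 and 4.98 CPM. Its fall between the diets and its rise of 5.09 share the same low HFD group of the first set, so they are not independent. Sprr2a2 and Sprr2a3 are near-identical copies, so the division of their reads is uncertain. Of the Ly6 and Plaur family of Lypd8, 7 of 14 were tested and none was called between the diets. Of the scavenger receptor genes related to Dmbt1, 4 of 10 were tested, and Lgals3bp was called lower on HFD at 9 weeks (-0.9993, SE 0.28, edgeR adjusted p = 0.0728).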

How the data were processed

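The authors trimmed adapters with Cutadapt 1.15, aligned the paired-end reads with STAR 2.6.0 and counted them per gene with RSEM against GRCm38, per the labels. The deposited tables hold expected counts and TPM per gene for each mouse, without the low-count filter and the weighting by cell type proportions that the authors applied later. FPKM tables and 24 columns of other samples per kind of table were not used. Expected counts were rounded. Of 47729 genes, 47224 had a symbol in GENCODE M21, 36172 had a read, 19 were removed for a shared symbol, and the 14020 that had over 5 reads in 6 or more libraries were tested. Total counts ranged from 189308 to 4690210 per library, and a floor of 3 reads stands for a count of 0, which covers counting error only.

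Diets were compared within each set, and the sets within each diet in 1 fit of 4 groups, with edgeR 4.0.16 in R 4.3.3 (TMM, robust quasi-likelihood test, Benjamini-Hochberg adjusted p under 0.1). CPM was computed on TMM sizes over the 45 libraries. Means of log2 CPM were taken after adding 0.5 to each CPM value. limma 3.58.1 on log2(TPM + 1) and DESeq2 1.42.0 were alternatives. The diet fit at 9 weeks was also run on simulated counts, with 200 genes changed by 2 on the log2 scale. It recovered 53% of them, and 13.8% of its 123 calls were false. A gene that was not called may therefore still differ. Each library is a separate mouse, and replicates differed beyond sampling noise (chi-square per degree of freedom of at least 5.30 in every pair of a group). All 9 genes are named, from each gene list the called genes and at most 4 with the smallest p, and by likeness the 5 genes with the highest rho. The genes, lists and tests were chosen with earlier results of these data known. Protein sequences were not used here. Some genes that the naming rule picks are not reported here.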

Additional observations from a re-analysis of the deposited data

How the results depend on the processing

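No paired analysis was possible because mice of the 2 diets share no mouse number within a set, and the numbers shared by the sets belong to different mice. The number series, which may stand for days or cages, was used as a term instead. Depth limits Mbl2 most, whose highest count was 108 reads. Of the 9 genes, the number called at 9 weeks (2) was 0 with limma on log2(TPM + 1), on log2(TPM + 0.1) or without a filter, and with the tuft or the Paneth markers as a covariate. It was 1 with the number series as a term, with all 45 libraries in 1 fit and without the Paneth-rich libraries, and 1 to 2 without single libraries, where Reg3b was lost without RFD mouse 3, 84, 23 or 24 or HFD mouse 6, 8, 70 or 80. The number called at 22 weeks (1) was 2 without a filter and with the number series, and 1 to 2 without single libraries. Between the sets, the number on RFD (0) was 1 with DESeq2. On HFD (1) it was 0 with DESeq2's size factors, the number series, the enterocyte or the Paneth markers as a covariate or the Paneth-rich libraries left out, and 2 with DESeq2 or the tuft markers. The cause was not tested. The settings with Paneth markers, without the robust prior and with the bias-adjusted quasi-likelihood were chosen after seeing the data.

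Some values changed sign. At 9 weeks Lypd8, Pigr and Dmbt1 were at -0.22, -0.026 and -0.0098 with the tuft markers, and Lypd8 at -0.0061 with the Paneth markers. At 22 weeks Reg3g was at 0.0074 with DESeq2's size factors, 0.0081 with DESeq2, 0.030 with the tuft markers, 0.045 without the Paneth-rich library and up to 0.17 and down to -0.72 without single libraries. Between the sets on RFD, Pigr was at 0.010 without a filter and 0.22 without the Paneth-rich libraries, and Reg3b at -0.40 with the Paneth markers. On HFD, Reg3g was at -1.04 with the number series and -0.088 with the Paneth markers, and Pigr at 0.24 with the tuft markers.

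Over all genes, the count called at 9 weeks (466) was 5 with limma on log2(TPM + 0.1), 11 on log2(TPM + 1), 20 and 27 with the tuft and the Paneth markers, 305 with the enterocyte markers, 290 without the libraries of low total, 1504 without a filter, 1534 with DESeq2, 1606 bias-adjusted, and 59 to 1996 without single libraries. At 22 weeks (111) it was 13 to 47 with limma, 63 in 1 fit of 45 libraries, 67 without the Paneth-rich library, 185 with the number series, 226 bias-adjusted, 351 with DESeq2, 429 without a filter and 58 to 667 without single libraries. Between the sets on RFD (204) it was 71 to 914, and on HFD (810) 104 to 1551. No library of the second set had a low total, so that setting gives no value at 22 weeks. The interaction (0) was 65 without a filter and 1 with DESeq2, with none of the 9 genes called. For Mbl2, at 0 reads in all HFD libraries, the interaction could not be estimated.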
